A study of Mus musculus with 96 samples.

Results

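Oxidative phosphorylation couples the transfer of electrons from nutrients to oxygen with the synthesis of ATP in the inner mitochondrial membrane. The genes described here are the nuclear genes for subunits of its 5 complexes, read in the epidermis of mice with the core clock gene Arntl present in all tissues, put back in chosen tissues, or put back in the brain alone. They were chosen by name (the Nduf, Sdh, Uqcr, Cox, Cyc1 and Atp5 families, without pseudogenes and without Ndufa4l2) and by level, as those with a mean of at least 0 on the log2 RPKM scale over all libraries. RPKM is reads per kilobase of exon, scaled to library size, so a log2 RPKM of 0 is 1 RPKM. Of 22497 genes in the tables, 83 matched by name and 75 passed the limit. They comprise 35 genes of complex I, 4 of complex II, 8 of complex III, 12 of complex IV and 16 of complex V. The subunits encoded by mitochondrial DNA were not analysed here.

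The study sequenced polyadenylated RNA of back-skin epidermis, separated from the dermis with dispase, in 96 libraries of female C57BL/6 mice aged 8 weeks. Mice were kept in constant darkness for 156 to 176 h and sampled at 6 circadian times (CT) 4 h apart, with 4 biological replicates at each time in each of 4 genotypes. Wild-type mice (WT) were Arntl wt/wt with K14Cre wt/tg and Syt10-Cre tg/wt. The other 3 genotypes were Arntl stopFL/stopFL, an allele that a Cre recombinase can switch back on. RERE mice carried both drivers (K14Cre tg/wt and Syt10-Cre tg/wt), EpiRE mice carried the epidermal driver alone (K14Cre tg/wt and Syt10-Cre wt/wt), and BRE mice carried the brain driver alone (K14Cre wt/wt and Syt10-Cre tg/wt). Arntl encodes BMAL1, an activator at the core of the circadian clock. K14Cre is driven by the keratin 14 promoter of basal keratinocytes, and Syt10-Cre is active in the brain's central clock, so all groups but EpiRE carried the Syt10-Cre transgene and all groups but BRE carried K14Cre. The comparisons ask how the subunit genes vary over the day and in level with the clock in both tissues, in the epidermis without the brain, and in the brain without the epidermis.

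Depth, as whole reads recovered from the tables, ran from 11.1 to 19.9 M (median 15.2 M), and genotype means lay between 14.8 and 15.4 M. Arntl mRNA had a median of 3.94 log2 RPKM in WT and 3.86 in BRE, so its level did not separate the genotypes. Its target Dbp ranged from 0.99 to 7.04 log2 RPKM in WT and from 0.53 to 7.01 in RERE. It ranged from 1.34 to 5.86 in EpiRE and was at or below 2.56 in every BRE library. The EpiRE median of Dbp was 4.84, against 4.90 in WT. All 10 core clock genes of a fixed list passed the rhythm test in WT and RERE, 0 of 10 in EpiRE and 1 of 9 in BRE. The 6 basal keratinocyte markers were all above the limit, with a median summed level of 10152.6 RPKM in WT, and markers of adipocytes, fibroblasts and endothelium had 0 genes above it. Altogether 3 libraries stood apart from the others of their group and time (RERE CT0 replicate 1, EpiRE CT0 replicate 1 and EpiRE CT8 replicate 1), with distances of 0.229, 0.298 and 0.227 log2 units against a median of 0.121. Without these libraries, the counts of differences in rhythm and level between EpiRE and WT and between EpiRE and RERE stayed at 0, those in level between EpiRE and BRE went from 3 to 4 and between RERE and BRE from 4 to 5, and the other counts that moved are given beside their results. The circadian times of EpiRE and BRE rest on the deposited column names, which match the sample titles in time and replicate, as in WT and RERE. A second set of tables by the authors names libraries by codes that run in numerical order in WT and RERE but out of order in EpiRE and BRE, and whether libraries of these 2 genotypes were placed at new times before deposit is unknown, which bears on every rhythm result in them. In bulk RNA, fewer cells of a type and less RNA per cell cannot be told apart.

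Complex I (NADH dehydrogenase) and complex II (succinate dehydrogenase) pass electrons to ubiquinone, complex III passes them on to cytochrome c, complex IV (cytochrome c oxidase) passes them to oxygen, and complex V (ATP synthase) makes ATP from the resulting proton gradient. Nuclear respiratory factor 1 (NRF1) is a known activator of many of these genes, and CLOCK with BMAL1 binds the E-box CACGTG in clock target genes. Both motifs were looked for in the 250 bases before each gene's start, on both strands, in the RefSeq promoter table of GRCm38.p6, which held 61 of the 75 genes. Of these genes, 5 had several promoters, and only the first by genomic position was searched. The NRF1 core GCATGCGC was found in 8 of the 61 promoters (13.1%), against 2.30% of 27025 mouse promoters and 4.82% of the 8651 promoters of genes above the level limit. It is shown because its share differed most in percentage points, not as a ratio, from those 2 sets, which include the subunit genes themselves. Each line below holds 61 bases, 5′ to 3′ on the strand of the gene, with the motif in capitals (10 letters where overlapping matches on both strands run together).
Atp5g2 (chr15:102671055-102671115, minus strand): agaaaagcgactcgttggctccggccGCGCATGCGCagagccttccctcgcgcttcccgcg
Atp5k (chr5:108434415-108434475, minus strand): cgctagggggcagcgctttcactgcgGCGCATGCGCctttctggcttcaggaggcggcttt
Atp5l (chr9:44920932-44920992, minus strand): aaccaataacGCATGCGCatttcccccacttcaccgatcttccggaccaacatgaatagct
Cox6a1 (chr5:115349086-115349146, minus strand): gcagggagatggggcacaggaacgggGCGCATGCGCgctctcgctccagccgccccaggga
Ndufa11 (chr17:56717676-56717736, plus strand): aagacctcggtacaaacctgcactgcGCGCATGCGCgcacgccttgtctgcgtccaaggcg
Ndufa6 (chr15:82354341-82354401, minus strand): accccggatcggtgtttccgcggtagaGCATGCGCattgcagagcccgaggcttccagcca
Ndufa8 (chr2:36049339-36049399, minus strand): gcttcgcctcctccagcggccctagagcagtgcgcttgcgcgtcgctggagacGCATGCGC
Sdhb (chr4:140961190-140961250, plus strand): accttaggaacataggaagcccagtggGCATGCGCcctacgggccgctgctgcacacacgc
Of these 8 genes, 6 passed the WT rhythm test described below, out of 29 such genes with a promoter in the table, and 2 did not, out of 32. A match in these letters is a description of the promoter and not a binding site. The RefSeq start used for Atp5g2 lay 1305 bases from that of its gene in the GENCODE M21 annotation. Its window lies inside that gene, as does the window of Ndufa8.

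The E-box CACGTG was present in 5 of 61 promoters (8.20%), close to the 8.80% among promoters of expressed genes. Its 5 windows are shown because the motif is the one that the protein restored in this study recognises.
Atp5g1 (chr11:96075643-96075703, minus strand): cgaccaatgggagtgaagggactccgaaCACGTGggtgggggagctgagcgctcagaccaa
Atp5g3 (chr2:73911516-73911576, minus strand): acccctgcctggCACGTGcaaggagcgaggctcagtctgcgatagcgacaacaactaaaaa
Atp5l (chr9:44920857-44920917, minus strand): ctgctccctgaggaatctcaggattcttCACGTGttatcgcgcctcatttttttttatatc
Ndufa7 (chr17:33824472-33824532, plus strand): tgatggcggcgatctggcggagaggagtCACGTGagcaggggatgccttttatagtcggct
Ndufv1 (chr19:4012892-4012952, minus strand): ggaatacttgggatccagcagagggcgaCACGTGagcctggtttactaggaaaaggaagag
Atp5l carried both motifs, and Atp5g1 and Atp5g3 encode the same mature subunit c of the ATP synthase rotor. Atp5g3, Atp5l and Ndufa7 passed the WT rhythm test, and Atp5g1 and Ndufv1 did not. CCGGAAGT (ETS and GABP) was found in 2 promoters (3.28% against 6.42%), CCAATC in 11 (18.0% against 19.8%), and TCAAGGTCA (ESRRA), the YY1 motif and TTATGTAA (D-box) in 1 each (1.64% against 0.243%, 0.763% and 0.347%).

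Subunit mRNAs were abundant in epidermis, and complexes differed in their mean level. On the log2 RPKM scale, which corrects for exon length, the mean over a complex's genes in WT was 5.37 ± 0.18 for complex I, 4.49 ± 0.15 for complex II, 6.19 ± 0.16 for complex III, 6.78 ± 0.18 for complex IV and 6.42 ± 0.15 for complex V (SD, n = 24 libraries). The median gene of complex II, at 5.52 over all 96 libraries, was not below that of complex I, at 5.46, since the low complex II mean of 4 genes includes Sdhd. The highest single gene was Atp5b, the catalytic beta subunit of the F1 head (chr10:128083273-128090391, mm10), at 8.47 over all 96 libraries. The alpha subunit gene Atp5a1 and the complex IV gene Cox4i1 followed at 7.91 each. Core subunits of complex I lay lower, with Ndufv1, which holds the NADH-binding flavin site, at 5.53 and Ndufs1, the largest iron-sulphur subunit, at 3.88. The 2 catalytic subunits of complex II were nearly level, with the flavoprotein Sdha at 5.56 and the iron-sulphur protein Sdhb at 5.49, but the membrane anchor Sdhd was the lowest of all 75 genes at 0.86. In complex III, the core protein gene Uqcrc1 stood at 7.06, the Rieske iron-sulphur protein Uqcrfs1 at 5.76 and cytochrome c1 (Cyc1) at 5.14. The highest and lowest of the 75 genes differed 195.7-fold in RPKM.

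Where a subunit is encoded by several isoform genes, the general form was high and the tissue-restricted form was low. Cox4i1 was at 7.91 and Cox4i2 at -4.56 log2 RPKM. Cox6a1 was at 7.68 and the heart and muscle form Cox6a2 at -5.13. Cox6b1 was at 7.48 and the testis form Cox6b2 at -0.17. Cox7a2 was at 4.19, Cox7a2l, which takes part in supercomplexes, at 7.21, and the muscle form Cox7a1 at -1.55. Cox7b was at 6.03 and Cox7b2 at -5.03. Cox8a was at 7.45, Cox8b at -4.11 and Cox8c at -4.81. The 3 genes for ATP synthase subunit c were all expressed, Atp5g1 at 5.52, Atp5g2 at 6.43 and Atp5g3 at 6.87. Of the 8 genes below the limit, 7 are these low isoforms, with Cox6b2 nearest to it. The other is Uqcr11, a small complex III subunit, at -5.23, and why it was so low was not tested. Above the limit, the nearest were Sdhd, the coupling factor gene Atp5s at 2.52 and the complex I gene Ndufa11 at 3.12. The exon length behind the RPKM of Ndufa11 was 4537 bases, against 1092 annotated exon bases in GENCODE M21. A longer length lowers RPKM, so the place of Ndufa11 is less certain. Skeletal muscle markers summed to 2.11 to 4.83 RPKM in WT.

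Some subunit genes have near-identical copies elsewhere in the genome, and reads could be divided between them. Of the 75 genes, 34 shared no 50-base stretch of exon with another annotated gene, and 4 shared over 20% of theirs (Atp5g2 38.3%, Uqcrb 25.4%, Cox7c 22.1%, Ndufs5 21.7%). Another gene on the same strand overlapped the exons of 4, with the overlap in Ndufb9 covering 19.5% of its exon bases, and 24 overlapped a gene on the opposite strand. The sources used here do not give strand use in counting. Values of these genes are less certain on that account.

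In WT, subunit mRNAs of all 5 complexes were higher around the start of the subjective day than 12 h later. The mean of the 75 genes was 6.12, 6.19, 5.86 and 5.89 log2 RPKM in the 4 libraries at CT0, 5.78, 5.86, 6.15 and 6.15 at CT4, and 5.74, 5.77, 5.81 and 5.59 at CT12. All 4 libraries at CT0 were above all 4 at CT12. The CT4 libraries split into 2 higher and 2 lower ones, and the lowest of them overlapped those at CT12. At CT16 the 4 values were 5.80, 5.77, 5.85 and 5.77, the narrowest spread of the 6 times in WT. The mean at the highest time exceeded that at the lowest by 0.29 log2 units in WT and 0.28 in RERE, against 0.14 in EpiRE and 0.096 in BRE.

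**Figure D1:**
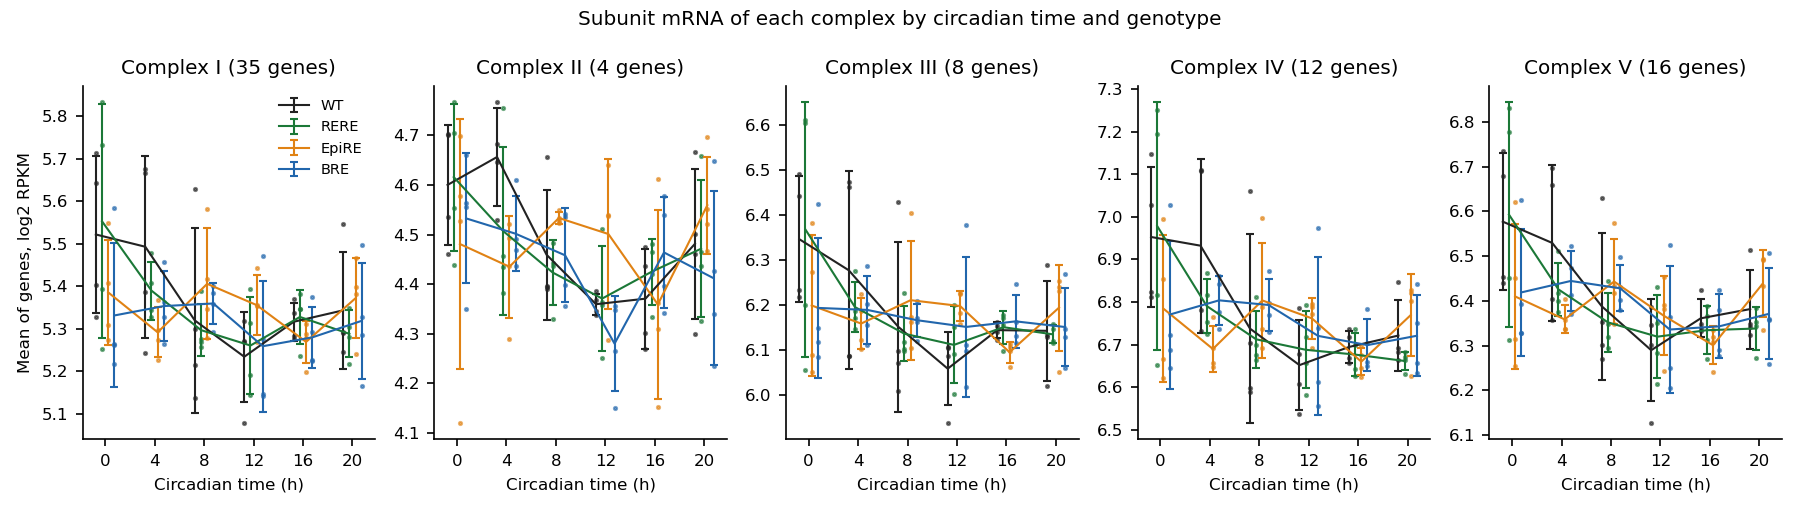
Mean log2 RPKM of the subunit genes of each complex (vertical axis) against circadian time in hours (horizontal axis) for the 4 genotypes. Points are libraries, lines join the means of 4 libraries and bars are SD. The WT and RERE lines are highest at CT0 or CT4 in every complex, and the EpiRE and BRE lines are flatter in complexes I, III, IV and V.

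A cosine and a sine of 24 h were fitted to each gene within each genotype and tested with limma's F test, with Benjamini-Hochberg adjustment over all genes tested and a threshold of 0.05. Amplitude is the height of the fitted curve above its mean in log2 units, and it is above 0 even for a flat gene. In WT, 38 of the 75 genes passed (50.7%), against a background of 33.1% of 11087 genes tested. The counts were 16 of 35 in complex I, 3 of 4 in complex II, 4 of 8 in complex III, 7 of 12 in complex IV and 8 of 16 in complex V. Within complex I, 7 of 16 genes of the hydrophilic arm and 9 of 19 of the membrane arm passed. Within complex V, 4 of 5 genes of the F1 head and 4 of 10 of the membrane part and stalk passed. Amplitudes were small. Their median was 0.15 over the 75 genes and 0.12 over all genes tested, and the median fold from trough to peak was 1.23, with a highest value of 1.43. Fitted peaks of all 75 genes, whether they passed or not, lay between CT21.6 and CT5.63, with a median of CT1.29. In the window from CT20 to CT6 lay 41.4% of the peaks of all genes tested.

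The smallest adjusted p in WT were those of 2 genes of the F1 head of ATP synthase. Atp5b was at 8.68, 8.73, 8.58 and 8.59 log2 RPKM in the WT libraries at CT0 and at 8.35, 8.35, 8.32 and 8.24 at CT12. The 2 times did not overlap. Its amplitude was 0.14 ± 0.03 (SE, n = 24 libraries) with a peak at CT0.017 (limma adjusted p = 0.0021). Atp5d, the delta subunit of the central stalk (chr10:80138632-80145818), was at 6.33, 6.34, 6.25 and 6.28 at CT0 and at 5.81, 5.88, 5.95 and 6.01 at CT16, again without overlap. Its amplitude was 0.16 ± 0.03 with a peak at CT2.24 (limma adjusted p = 0.0017). Atp5a1 had an amplitude of 0.12 ± 0.03 (limma adjusted p = 0.0063). In the membrane part, the largest amplitudes among those that passed were those of Atp5l, subunit g, at 0.20 ± 0.05, and of Atp5g2 at 0.18 ± 0.05.

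In complex I, 2 small accessory subunits of the membrane arm had the largest amplitudes. Ndufa1 was at 6.13, 6.17, 5.86 and 5.82 log2 RPKM in WT at CT0 and at 5.59, 5.58, 5.70 and 5.14 at CT12, with no overlap. Its amplitude was 0.25 ± 0.06 with a peak at CT2.22 (limma adjusted p = 0.0115). Ndufb3 followed with 0.23 ± 0.06 (limma adjusted p = 0.0101). Ndufv3, an accessory subunit of the NADH-binding module (chr17:31520115-31531331), was at 5.67, 5.88, 5.34 and 5.62 at CT0 and at 5.23, 5.30, 5.31 and 5.07 at CT12. Its 2 times did not overlap, though replicate 3 at CT0 lay close to the CT12 libraries. Its amplitude was 0.21 ± 0.04 (limma adjusted p = 0.0029). The core subunit Ndufs1 passed with an amplitude of 0.10 and an earlier peak, at CT22.3, while Ndufv1, beside it in the same module, had an amplitude of 0.10 with an adjusted p of 0.0588 by limma.

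In complex II, the anchor gene Sdhd had an amplitude of 0.26 ± 0.08 with a peak at CT3.61 (limma adjusted p = 0.0321). Its 4 WT values at CT4 were 1.49, 1.02, 1.10 and 1.47 log2 RPKM, all above the 0.24, 0.36, 0.72 and 1.00 at CT16, and its low level leaves few reads behind each value. Sdhb was at 5.96, 5.83, 5.64 and 5.52 at CT0 and at 5.49, 5.31, 5.40 and 5.17 at CT12, with an amplitude of 0.17 ± 0.05 (limma adjusted p = 0.0223). Sdha, the flavoprotein, had an amplitude of 0.05 with an adjusted p of 0.175 by limma. In complex III, the small subunit gene Uqcrq was at 6.25, 6.41, 5.91 and 6.06 at CT0 and at 5.67, 5.73, 5.79 and 5.40 at CT12. Its amplitude was 0.23 ± 0.06 (limma adjusted p = 0.0153). Uqcrb, the next largest of those that passed, had 0.16 ± 0.05 (limma adjusted p = 0.0480), and the core protein gene Uqcrc1 had 0.14 (limma adjusted p = 0.0335). The redox subunits Uqcrfs1 and Cyc1 did not pass, with amplitudes of 0.11 and 0.085 and limma adjusted p of 0.128 and 0.146.

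In complex IV, the small subunit gene Cox7c was at 7.27, 7.31, 6.95 and 7.10 log2 RPKM in WT at CT0, at 7.02, 7.12, 7.24 and 7.40 at CT4, and at 6.75, 6.65, 6.64 and 6.75 at CT16. The CT16 libraries lay below all 8 of the other times. Its amplitude was 0.24 ± 0.05 with a peak at CT3.39 (limma adjusted p = 0.0057). Cox6c had 0.21 ± 0.05 (limma adjusted p = 0.0110), and Cox5a, which sits on the matrix side of the enzyme, had 0.19 ± 0.05 (limma adjusted p = 0.0112). Cox4i1, the most abundant gene of the complex, had an amplitude of 0.15 with an adjusted p of 0.0547 by limma. The 38 WT calls were not equally firm. Atp5a1, Atp5b and Ndufv3 passed under each of the 12 alternatives that refit the cosine, and 16 of the 38 passed under at least 10 of these. With time as a factor of 6 levels in place of the cosine, 9 of the 75 passed, among them these 3 and Atp5d, and in the authors' deposited tables the genes with q-values under 0.05 from both JTK_CYCLE and BIOCYCLE in WT included 3 of the 75 (Atp5b, Ndufs1 and Ndufv3) and 915 of 22497 genes (4.07%). Leaving out 1 replicate of each time gave between 12 and 29 genes. The shares of all genes tested under these refits are not given here.

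**Figure D2:**
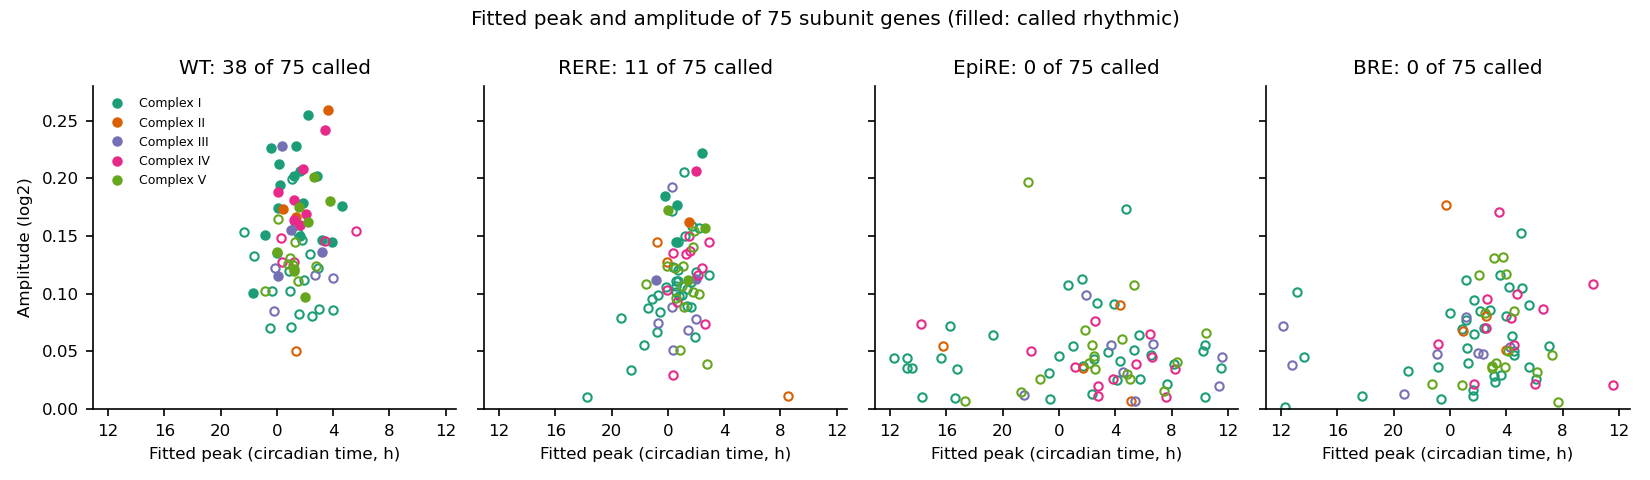
Amplitude in log2 units (vertical axis) against fitted peak in circadian hours (horizontal axis) for the 75 genes, with 1 panel per genotype. Colours mark the complex, and filled points passed the rhythm test (WT 38, RERE 11, EpiRE 0 and BRE 0). Peaks cluster around CT0 in WT and RERE, and in EpiRE they spread over the day at low amplitude.

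Gene length moved with these results. The 75 genes were short, with a median exon length of 754 bases (292 to 4722) against 3449 for all genes tested in WT. Among genes outside the 75, short genes also peaked in the window from CT20 to CT6 more often. In WT it held 67.0% of peaks of genes up to 1 kb, 63.6% from 1 to 2 kb, 45.8% from 2 to 4 kb and 24.1% above 4 kb. The same shares were 62.3%, 61.5%, 46.1% and 26.4% in RERE, between 31.6% and 41.8% in EpiRE, and between 45.2% and 56.8% in BRE. The share that passed the test went the other way, from 20.8% of the WT genes up to 1 kb to 38.6% above 4 kb, while 24 of the 46 subunit genes up to 1000 bases (52.2%) and 14 of the 29 longer ones (48.3%) passed. Each library also had a slope of log2 level on gene length, in log2 units per doubling of length, relative to the mean of its own genotype. These slopes therefore do not compare genotypes with each other. In WT this slope averaged -0.031 at CT0 and at CT4, 0.027 at CT16 and 0.028 at CT20. The 5 WT libraries with the highest subunit mean were also the 5 with the lowest slopes, at or below -0.052, and 2 of them were at CT0, 2 at CT4 and 1 at CT8. The same 2 sets of 5 libraries shared 4 in RERE, 3 in EpiRE and 2 in BRE.

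After each library was corrected for its smooth trend on gene length, 28 of the 75 genes passed in WT, 22 of them among the 38, and 26 of the 28 peaked in the window. Over all 75 genes, 63 peaked in the window. The shares of all genes tested that passed or peaked in the window under this correction are not given here. The corrected counts in WT and RERE therefore have no background beside them. The median amplitude was then 0.083, below the 0.11 of all genes tested under the same correction, where without the correction it had been above. In RERE, 11 genes passed after the correction, 9 of them among the 11 without it. Across the 75 genes in WT, amplitude and exon length had a Spearman correlation of -0.41 (a description across genes that share their libraries). The part of the length trend in the rhythm calls beyond this correction was not tested.

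**Figure D3:**
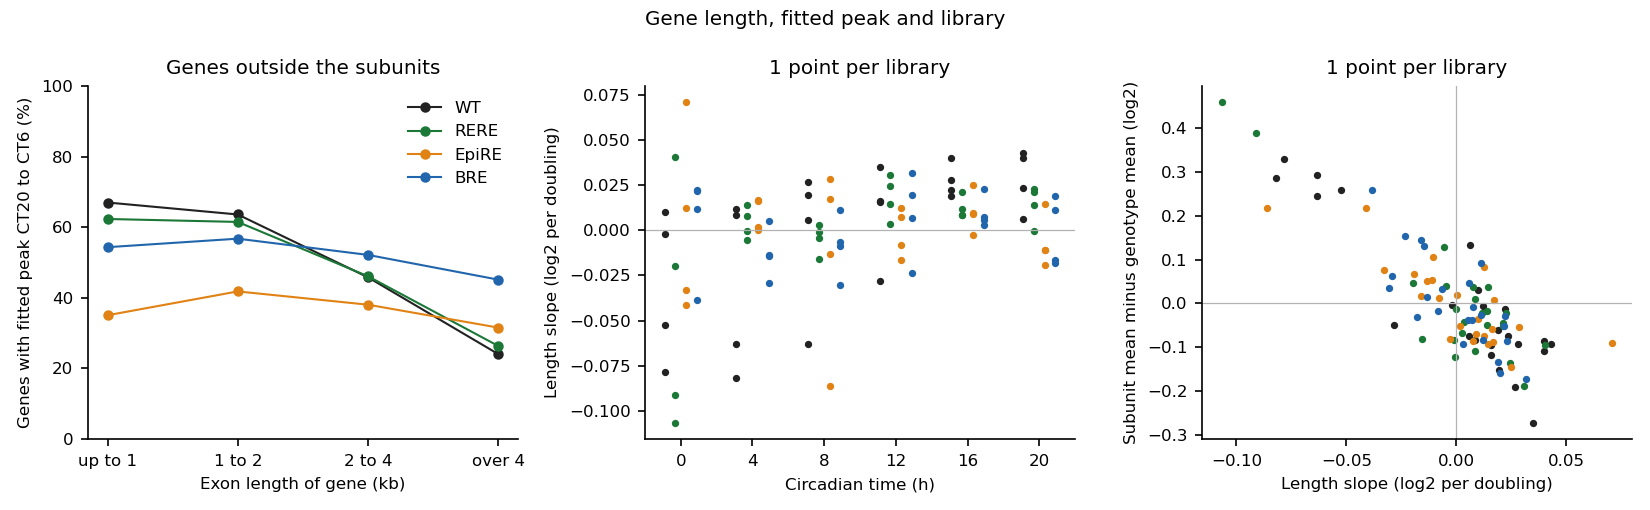
Left, percent of genes outside the 75 whose fitted peak lies between CT20 and CT6, against exon length in kb, by genotype. Middle, slope of log2 level on gene length (log2 per doubling, relative to the genotype mean) against circadian time with 1 point per library. Right, the mean of the 75 genes minus its genotype mean (log2) against that slope. In WT the share falls from 67.0% to 24.1% with length, and the 5 WT libraries with the lowest slopes have the highest subunit means. That overlap is 4 of 5 in RERE, 3 of 5 in EpiRE and 2 of 5 in BRE.

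In RERE, with Arntl restored by both drivers, 11 of 75 genes passed the rhythm test (14.7%), against a background of 19.4% of 11032 genes. They were the complex I genes Ndufc1, Ndufv3, Ndufa6 and Ndufs3, the complex II anchor gene Sdhc, Uqcrc1 and Cyc1 of complex III, Cox7a2 of complex IV, and Atp5d, Atp5g2 and Atp5b of complex V. Of the 11, 9 had also passed in WT, which is 81.8% of the RERE calls and 23.7% of the WT calls. Fitted peaks of 73 of the 75 lay in the window from CT20 to CT6, as did 41.8% of those of all genes tested. An amplitude smaller than in WT was found in 61, and the median was 0.11, against 0.099 over all genes. Over the 75 genes the RERE peak was earlier than the WT peak by a median of 0.38 h (RERE minus WT, -0.38 h).

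Ndufv3 in RERE was at 5.61, 5.84, 5.75 and 5.60 log2 RPKM at CT0 and at 5.13, 5.16, 5.38 and 5.35 at CT12, without overlap. Its amplitude was 0.18 ± 0.03 with a peak at CT23.8 (limma adjusted p = 0.0004). Atp5d was at 6.09, 6.34, 6.50 and 6.28 at CT0, all above the 5.89, 5.87, 5.99 and 5.93 at CT16. Its amplitude was 0.17 ± 0.03 (limma adjusted p = 0.0008). These 2 genes passed under each of the 12 alternatives that refit the cosine and with time as a factor, but not by the authors' deposited q-values. Ndufc1, a small membrane-arm subunit, was at 5.60, 6.06, 6.13 and 5.71 at CT0 and at 5.37, 5.44, 5.57 and 5.44 at CT16, with an amplitude of 0.22 ± 0.05 (limma adjusted p = 0.0068). Cox7a2 was at 4.31, 4.65, 4.54 and 4.45 at CT0 and at 3.97, 3.86, 4.15 and 3.90 at CT16, with an amplitude of 0.21 ± 0.05 (limma adjusted p = 0.0104). Sdhc had an amplitude of 0.16, Uqcrc1 and Cyc1 of 0.11 each, and Atp5g2 of 0.16.

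The RERE count depended on single libraries. RERE CT0 replicate 1, which stood apart, had the lowest 75-gene mean of its time, 5.74 against 6.23, 6.30 and 5.89 in the other replicates. Without the 3 libraries that stood apart, 20 genes passed in RERE. Without replicate 2 of every time 2 genes passed, and without replicate 3 it was 3. The shares of all genes tested that passed under these settings are not given here. In the authors' deposited tables for RERE, both q-values were under 0.05 for 0 of the 75 genes and for 212 of all genes.

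In EpiRE, with the epidermal driver alone, 0 of the 75 genes passed the limma test, and 0% of 11061 genes did. The fit assumes a phase shared by the libraries of a genotype, so a count of 0 does not show constant expression. Before adjustment 2 had a p under 0.05, and limma-voom on recovered reads called 0. The median amplitude was 0.04, against 0.074 over all genes tested, and 74 of the 75 genes had a smaller one than in WT. In the window from CT20 to CT6 lay 45 of the 75 peaks (60.0%) and 35.9% of those of all genes. Atp5d in EpiRE was at 5.61, 6.22, 6.26 and 5.98 log2 RPKM at CT0 and at 5.97, 6.00, 5.98 and 6.02 at CT16, so the CT0 libraries lay on both sides of the CT16 libraries. The lowest of them is EpiRE CT0 replicate 1, which stood apart, and without the libraries that stood apart the EpiRE count was still 0.

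In BRE, with the brain driver alone, 0 of 75 passed against a background of 1.14% of 10970 genes, with 10 whose raw p was under 0.05 and 1 called by limma-voom. The median amplitude was 0.05, against 0.072 over all genes, and 71 of the 75 were smaller than in WT. The window held 60 of the 75 peaks (80.0%) and 50.3% of those of all genes. Atp5d came nearest, at 6.22, 6.32, 6.23 and 6.31 log2 RPKM at CT4 and 5.89, 5.95, 6.13 and 5.96 at CT16, which did not overlap. Its amplitude was 0.13 ± 0.03 and its adjusted p 0.0503 by limma. After the correction for gene length, 2 genes passed in BRE, and the share of all genes that did so is not given here.

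A gene that passes in WT and misses the threshold elsewhere is not thereby shown to differ, so the difference in rhythm was tested between genotypes. It is given as the length of the vector between the 2 fitted rhythms in log2 units. EpiRE and WT differed in 0 of 75 genes, against a background of 1.57% of 11059 genes, by limma. Before adjustment 19 had a p under 0.05, limma-voom called 0, and the median length over the 75 genes was 0.13. BRE and WT differed in 0 by limma, against 5.69% of genes, with 11 with a raw p under 0.05 and 0 by limma-voom. With libraries shifted to the median of their ratios 6 of the 75 genes differed, and 4 after the correction for gene length. The shares of all genes tested that differed under these settings are not given here, so these counts have no background. The nearest in that comparison were Ndufv3 (0.18 ± 0.05, limma adjusted p = 0.0714) and Atp5b (0.11 ± 0.03, limma adjusted p = 0.0742). For RERE and WT the limma count was 0 of 75, against 0% of genes, with 1 with a raw p under 0.05 and 0 by limma-voom. EpiRE differed from RERE in 0 by limma (background 1.05%, 10 with a raw p under 0.05, 0 by limma-voom) and from BRE in 0 (background 0%, 2 with a raw p under 0.05, 0 by limma-voom).

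Between RERE and BRE, 1 of the 75 genes differed in rhythm, Ndufv3, against a background of 4.19% of 10991 genes. Its BRE values were 5.63, 5.64, 5.61 and 5.60 log2 RPKM at CT4 and 5.57, 5.28, 5.52 and 5.45 at CT12, a narrower range than in RERE. The length of the difference was 0.16 ± 0.04, with amplitudes of 0.18 in RERE and 0.08 in BRE (limma adjusted p = 0.0278). The call was made under 6 of 12 alternatives, with adjusted p between 0.024 and 0.324, and was lost when any of the 4 replicates was left out and after the correction for gene length. Without the libraries that stood apart, 2 genes were called. BRE, EpiRE and RERE comparisons with WT share the WT libraries and are not independent of each other.

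The level of the subunit genes, taken as the genotype term beside time as a factor, differed little between the 4 genotypes. The mean of the 75 genes was 5.86 ± 0.17 log2 RPKM for WT, 5.84 ± 0.15 for RERE, 5.83 ± 0.10 for EpiRE and 5.82 ± 0.10 for BRE (SD, n = 24 libraries each). RERE and WT differed in 0 of 75 genes by limma, against a background of 2.14% of 11051 genes (0.787% higher and 1.35% lower in RERE), with 1 with a raw p under 0.05 and 0 by limma-voom. No difference in that comparison was larger than 0.14. EpiRE and WT differed in 0 by limma, against 2.23% of 11059 genes (0.931% higher and 1.30% lower in EpiRE), with 1 with a raw p under 0.05, 0 by limma-voom and a largest difference of 0.13. RERE and EpiRE differed in 0 by limma, with 0 with a raw p under 0.05 and 0 by limma-voom (background 0.00906%).

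Between BRE and WT, 4 of the 75 genes differed in level (5.33%), against a background of 36.9% of 11016 genes (12.5% higher and 24.4% lower in BRE). Of these 4, 3 belong to complex I and were lower in BRE, and 1 belongs to complex IV and was higher. The median difference over the 75 genes was -0.04, as it was over all genes (-0.05), with 61 of 75 below 0, and it became 0.02 with the correction for gene length. Ndufb4, an accessory membrane-arm subunit (chr16:37647170-37654453), ranged from 4.41 to 5.27 log2 RPKM in WT with a median of 4.95, and from 4.41 to 5.08 in BRE with a median of 4.75. The ranges overlapped, and the difference of BRE minus WT was -0.19 ± 0.06 (SE, limma adjusted p = 0.0073). It shares 18.3% of its 50-base stretches with other annotated genes. Ndufb4 was also higher in RERE than in BRE by 0.20 (limma adjusted p = 0.0010) and in EpiRE than in BRE by 0.18 (limma adjusted p = 0.0145), and its level was 4.94 in RERE and 4.93 in EpiRE.

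Ndufb10, another membrane-arm subunit (chr17:24722060-24724478), ranged from 6.29 to 6.95 log2 RPKM in WT with a median of 6.51, and from 6.24 to 6.67 in BRE with a median of 6.42. The difference was -0.14 ± 0.04 (limma adjusted p = 0.0097), and EpiRE exceeded BRE by 0.12 (limma adjusted p = 0.0077). Ndufv1 (chr19:4007384-4012806) ranged from 5.26 to 5.77 in WT, median 5.54, and from 5.17 to 5.70 in BRE, median 5.44. The difference was -0.09 ± 0.03 (limma adjusted p = 0.0208). Ndufv1 was above its BRE level by 0.09 in RERE (limma adjusted p = 0.0405) and by 0.09 in EpiRE (limma adjusted p = 0.0284).

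Ndufa4 was first described in complex I and is now counted as a subunit of complex IV (chr6:11900292-11907497). It ranged from 6.39 to 7.06 log2 RPKM in WT, median 6.60, and from 6.52 to 7.14 in BRE, median 6.77. The difference of BRE minus WT was 0.17 ± 0.05 (limma adjusted p = 0.0050). In RERE the difference from WT was 0.14 (limma adjusted p = 0.117) and in EpiRE it was 0.08 (limma adjusted p = 0.631). Against RERE, BRE differed in 4 of 75 genes (background 27.5% of 10991 genes, 17.4% higher and 10.1% lower in RERE). Beside Ndufb4 and Ndufv1 these were the core iron-sulphur subunit Ndufs7, higher in RERE by 0.13 (limma adjusted p = 0.0489), and Ndufv3, lower in RERE by 0.085 (RERE minus BRE, -0.085, limma adjusted p = 0.0475). Against EpiRE, BRE differed in 3 (background 34.0% of 11002 genes, 22.9% higher and 11.1% lower in EpiRE), the Ndufb4, Ndufb10 and Ndufv1 differences given above. Under other scalings most of the genes called between EpiRE and BRE were lower in EpiRE. With libraries shifted to the median of their ratios, 1 was higher and 6 lower, and after the correction for gene length 2 were higher and 10 lower. The lower ones were other genes, since Ndufb4, Ndufb10 and Ndufv1 stayed higher in EpiRE under all 12 alternatives. Their smallest differences were 0.10, 0.08 and 0.05. Over all genes tested, calls went from 2520 higher and 1217 lower in EpiRE to 1545 and 1727 with shifted libraries. After the correction for gene length they were 1590 and 1798. Of the 3 calls, 0 passed under all 12 alternatives, and leaving out 1 replicate of each time gave 0 to 3.

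Of these level calls, Ndufa4 and Ndufb4 in BRE against WT and Ndufb4 in BRE against RERE passed under all 12 alternatives. The scale changed how many genes were called higher and how many lower. With each library shifted to the median of its ratios to the gene means, 3 of the 75 genes were higher and 2 lower in BRE than in WT. Over all 11016 genes tested, 1888 were higher and 1815 lower on that scale. After the correction for gene length, 12 of the 75 were higher and 2 lower, and 3 of the 4 calls were kept. Over all genes tested, 2021 were higher and 1959 lower under the same correction. The higher ones among the 75 then included Ndufa4 (0.24), Ndufv3 (0.14), Uqcrfs1 (0.13) and Atp5d (0.10), and the lower ones were Ndufb4 (-0.12) and Ndufb10 (-0.07). The summed level of suprabasal keratinocyte markers also differed, with a median of 13591.9 RPKM in BRE (9662 to 16404) and 10940.8 in WT (7926 to 12702), and 4 of its 5 measured genes were higher in BRE. Its part in the level results was not tested.

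**Figure D4:**
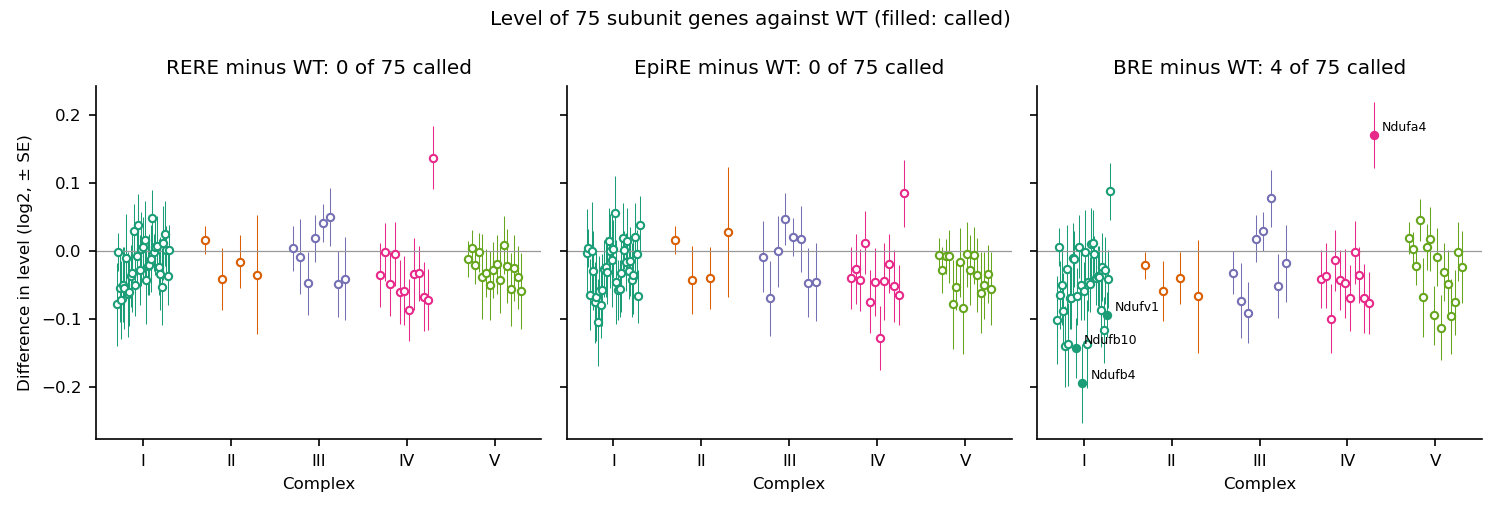
Difference in level from WT (log2, bars are SE) for the 75 genes, grouped by complex, in RERE, EpiRE and BRE. Filled points passed the test, 0 in RERE, 0 in EpiRE and 4 in BRE, where Ndufa4 of complex IV is above 0 and 3 complex I genes are below.

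**Figure D5:**
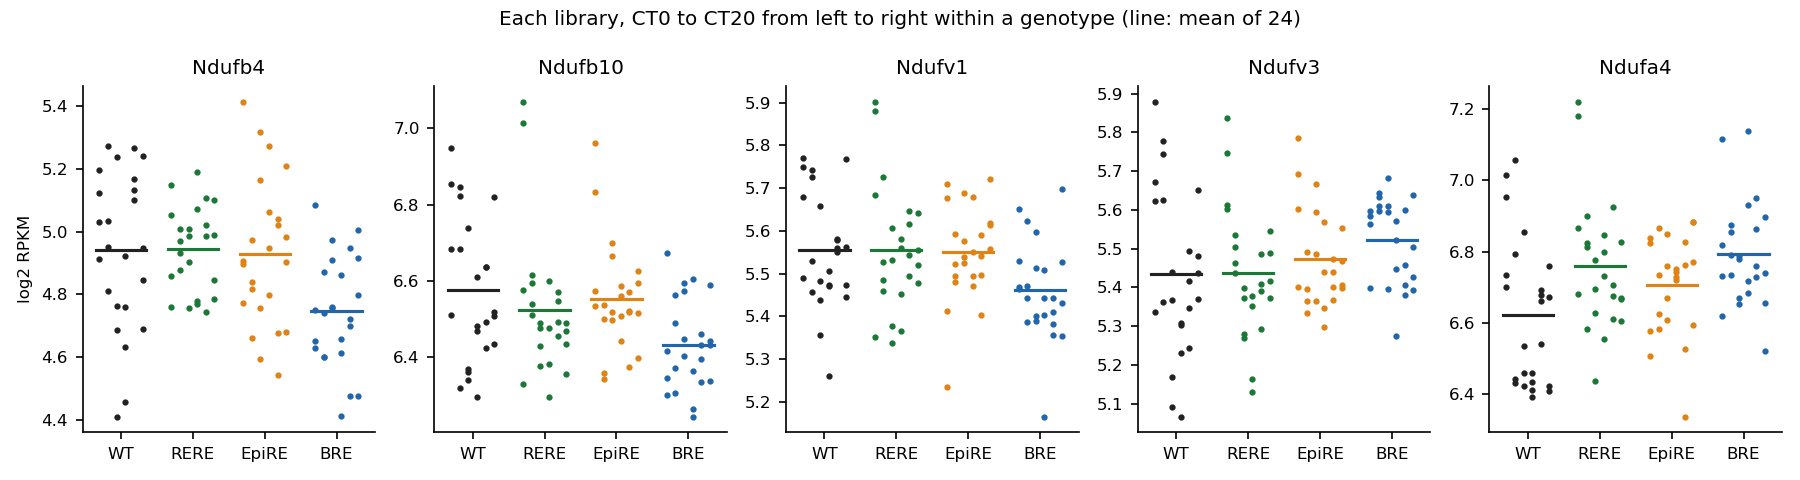
Log2 RPKM of the 5 genes Ndufb4, Ndufb10, Ndufv1, Ndufv3 and Ndufa4 in every library (points), ordered from CT0 to CT20 within each genotype, with the mean of 24 libraries as a line. The ranges of the genotypes overlap for each gene, and the BRE mean of Ndufb4 (4.75) lies below those of the other genotypes (4.93 to 4.94).

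Genes around the respiratory chain were taken from fixed lists. Assembly factors build the complexes but do not stay in them. Their lists take the term broadly, and that of complex V also holds the inhibitor gene Atpif1. In the WT rhythm test, 2 of 16 passed for complex I, 0 of 4 for complex II and 3 of 5 for complex III. For complex IV it was 3 of 21, and for complex V 2 of 5. Together these were 10 of 51 (19.6%), against the 33.1% of all genes tested. Among them were Ndufaf3 (amplitude 0.27) and Ndufaf8 (0.21) of complex I, Uqcc3 (0.24) and Ttc19 (0.17) of complex III, Taco1 (0.18) and Coa3 (0.17) of complex IV, and Fmc1 (0.25) and Atpif1, the inhibitor of ATP synthase (0.20). Ttc19 peaked at CT10.4, outside the window that held all 75 subunit genes. Electron carriers and donors passed in 5 of 7 genes, with the electron transfer flavoprotein subunit Etfb at 0.23 and cytochrome c, Cycs, at 0.21. Enzymes of the citric acid cycle passed in 7 of 13, with Mdh2 at 0.16 and Idh3g at 0.15, and all 7 peaked between CT20 and CT6. Regulators of mitochondrial biogenesis passed in 2 of 11, Ppargc1b, a coactivator (0.22, peak at CT10.4), and Gabpb1 (0.12). By limma, 0 of the 82 list genes tested passed in EpiRE and 0 of 81 in BRE. In each of these genotypes 8 had a raw p under 0.05, and limma-voom called 0. The complex II factors, of which 0 passed in WT by limma, had 1 gene with a raw p under 0.05 and 0 by limma-voom.

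For the level in BRE against WT, 11 of 50 genes of the assembly lists (22.0%) were lower, near the 24.4% of all genes tested. The count of higher genes was 0, and with the correction for gene length 10 were lower and 4 higher. The largest were Fmc1 (-0.30), Cox20 (-0.29), Ndufaf4 (-0.24), Ndufaf3 (-0.23), Uqcc2 (-0.23), Ttc19 (-0.22) and Coa7 (-0.20). Of the 11 biogenesis regulators 4 were lower (36.4%), led by Ppargc1b (-0.26) and Nrf1 (-0.17), the gene of the factor whose motif was searched above. Of the 13 citric acid cycle genes, Cs (citrate synthase, 0.11) and Ogdh (0.08) were higher and Idh3b (-0.10) was lower. Electron carriers and donors had 2 genes higher, Etfdh (0.10) and Etfa (0.07), and 1 lower, Dhodh (-0.17). In RERE and EpiRE against WT, Acad9 was higher by 0.13 and 0.10, and Higd1a was lower (-0.20 and -0.24). Ogdh was higher in EpiRE by 0.09.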

How the data were processed

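Per the labels, polyadenylated RNA of mouse epidermis was sequenced in 96 libraries. Per the submitters' processing notes, Trimmomatic 0.36, HISAT2 2.2.1, SAMtools 1.3.1, featureCounts 1.6.0, edgeR and the mm10 build were used. The authors deposited log2 RPKM values per library in tables of 22497 genes per genotype, and p-values and q-values of JTK_CYCLE and BIOCYCLE, which are also the authors' deposited values. A further 96 columns whose codes match no label were not used. Column names in the BIOCYCLE tables, matched to the sample titles, gave each library its group and CT. Whole reads were recovered for 22469 genes (99.88%), with 99.9987% of values within 0.1 read of a whole number. All scaling factors were 1, so the 4 tables share a scale of reads over library total, without correction for composition. Level differences between genotypes depended on this scale. The median of BRE minus WT over all genes tested was -0.045, and it was -0.011 with libraries shifted to the median of their ratios. Use of the molecular identifiers to remove duplicates is not stated in the sources used here.

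Tests used limma 3.58.1 in R 4.3.3 (trend), on genes with a mean log2 RPKM of at least 0 over the libraries compared, with Benjamini-Hochberg adjustment over all of them and a threshold of 0.05. Scripts were tested on simulated data. Genes were placed by Ensembl ID in GENCODE M21, and promoters come from RefSeq (GRCm38.p6). All members are accounted for by complex, and those named with values are core subunits, isoform sets, the 2 called genes of each complex with the largest amplitude or difference, the 2 such genes of each list, and the genes nearest the level limit. Other genes named with values (Atp5d, Ndufv3 and Ndufc1 among them) were chosen after their values were seen. The members, lists and tests were chosen with earlier results of these data known. Alternatives were no filter, log2(RPKM + 1), another scaling, time as a factor, a shared spread, limma-voom, each replicate left out, a replicate block and the deposited q-values, and, added after seeing the data, a correction for gene length and the removal of 3 libraries.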

Additional observations from a re-analysis of the deposited data

Results flagged for a closer look

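The mean of each complex and of the 75 genes was screened for a library far from the other 3 of its group, over 24 groups and 6 measures. Of these 144 sets, 14 held such a library, where chance gives about 1 in 20. The complex means share libraries, so the 14 are not independent of each other. In WT, the highest library lay apart at CT20 for complex I (5.55 log2 RPKM), complex IV (6.85), complex V (6.51) and the 75 genes (5.99), at CT8 for complex II (4.66) and at CT16 for complex V (6.42), and the lowest lay apart at CT12 for complex III (5.94). In RERE, the highest library at CT8 lay apart for complex I (5.39), complex III (6.23) and the 75 genes (5.88). In EpiRE, the lowest library at CT20 lay apart for complex III (6.05) and complex IV (6.63). In BRE, the highest library at CT0 lay apart for complex I (5.58) and the 75 genes (6.08).

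The rhythm of Ndufv3 differed between RERE and BRE by the test of the difference itself, with a difference of 0.164 log2 units (limma adjusted p = 0.0278).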

How the results depend on the processing

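In all, 158 comparisons of a count with an alternative stayed within 1.5 times of the value reported and 42 did not. A count of 0 that stayed at 0 was scored as within this limit, and most of the reported counts were 0. The 158 therefore do not measure how stable the counts above 0 were. The median level difference of BRE minus WT over the 75 genes turned from -0.04 to 0.02 with the length correction. For single genes, 539 comparisons kept the call and 193 lost it. Direction was compared for level differences alone, and it did not change in these. Amplitudes and lengths of rhythm differences cannot be negative, and fitted peak times were not part of this comparison. Rhythmic genes in WT (38) numbered 19 with no filter, 9 with CT as a factor, 3 by the deposited q-values and 12 to 29 without 1 replicate. In RERE (11) they numbered 20 with libraries shifted to the median of their ratios, 7 with CT as a factor, 17 with a spread shared over the 96 libraries, 20 without the 3 libraries that stood apart, 0 by the deposited q-values and 2 to 9 without 1 replicate. In BRE (0) it was 1 with shifted libraries, 1 with the shared spread, 1 by limma-voom and 2 with the length correction. Rhythm differences between BRE and WT (0) were 6 with shifted libraries, 1 with the shared spread, 4 with the length correction and 0 to 1 without 1 replicate. Between RERE and BRE (1) they were 0 with the shared spread, 0 with the length correction, 2 without the 3 libraries and 0 to 0 without 1 replicate. Level differences between RERE and WT (0) were 1 with no filter and 1 with the length correction. Between BRE and WT (4) they were 7 by limma-voom, 14 with the length correction and 3 to 4 without 1 replicate. Between RERE and BRE (4) they were 2 with shifted libraries, 2 with the shared spread, 12 with the length correction and 1 to 4 without 1 replicate. Between EpiRE and BRE (3) they were 7 with shifted libraries (1 higher and 6 lower in EpiRE), 12 with the length correction (2 higher and 10 lower) and 0 to 3 without 1 replicate. The cause was not tested for any of these. Counts with no share of all genes tested given above have no background beside them.

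Same-numbered replicates of different groups had mean correlations between -0.07 and 0.09. The highest was that of BRE and WT, with 50% of pairs over 0.1 and a mean of -0.03 for other-numbered pairs. Means near 0 do not show whether some same-numbered libraries shared a batch, which was not tested. The main tests took the numbers as names alone. With the replicate block, 34 genes were rhythmic in WT, 10 in RERE and 0 in the other genotypes, 1 differed in rhythm between RERE and BRE, and level differences numbered 4 between BRE and WT, 2 between RERE and BRE and 3 between EpiRE and BRE. Depth of 11.1 to 19.9 M reads limits low genes such as Sdhd most.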
